A study of Homo sapiens with 12 samples.

Results

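The centrosomal protein (CEP) and kinesin (KIF) genes of HEK293 cells were described by the G-quadruplex signal at their transcription start sites (TSSs). The members were the protein-coding genes whose symbol is CEP or KIF followed by a number, 78 of the 20056 protein-coding genes in the RefSeq table, 39 in each family. Each gene took the deposited TSS window on its own strand that lay nearest to its RefSeq 5′ end, within 1000 bp. This gave 72 genes with a window, 38 CEP and 34 KIF genes, of 16892 protein-coding genes matched in the same way. The symbols alone decide membership, but the pair of families was chosen by the peak calls and CPM of these same libraries in earlier results, so shares and levels are given as descriptions, with no test.

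The series profiled G-quadruplexes, stacked folds of guanine-rich DNA, in HEK293 cells, a widely used line derived from human embryonic kidney, which were fixed and not otherwise treated. Chromatin was precipitated with BG4, an antibody fragment that binds these folds. The 12 samples are 3 technical ChIP libraries and 1 input for each biological replicate (BioRep1, BioRep2, BioRep3), all of 1 condition. The reads of each ChIP library were counted in 400 bp windows around the TSSs, and each biological replicate had 1 peak list. No input was used, so levels are not relative to unprecipitated chromatin.

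The libraries held 372030 to 846114 reads in the 58381 windows, and the lists held 7931, 11665 and 13049 peaks for BioRep1, BioRep2 and BioRep3. Counts were scaled to counts per 1000000 reads in windows (CPM), and since all windows have the same length, CPM needs no scaling for length between genes. Differences in local background between genes remain in it. In each biological replicate the technical libraries differed by no more than about the sampling noise, so they were averaged and counted as 1 sample (n = 3 biological replicates). One read was worth 1.18 to 2.69 CPM, depending on the library. Coordinates are 1-based on hg38, and each window is given with the strand and Ensembl ID of its gene.

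The centrosome is the main microtubule-organising centre of animal cells. It holds a pair of centrioles in a protein matrix, and in resting cells the older centriole becomes the base of the primary cilium. Kinesins are motors that use ATP to move along microtubules or to take them apart. Mitotic kinesins build the spindle, move chromosomes and complete cell division, while axonal transport kinesins carry vesicles, organelles and proteins along the long microtubule tracks of nerve cells. Both functions are encoded in many genes that are also active in other cells.

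Of the 6 members with no value, KIF1A, KIF25, KIF24, CEP164 and KIF7 had no window on their strand within 1000 bp. Their nearest same-strand windows lay 1095 bp, 1430 bp, 22300 bp, 7221 bp and 7598 bp away, in that order. KIF13B had a window at each end of the gene and no listed strand, so it was left out. At the edge of the distance rule, CEP170B was kept at 767 bp and KIF1A fell outside at 1095 bp. For 12 members the window lay more than 200 bp from the RefSeq 5′ end.

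Stretches of 6 RefSeq promoters (GRCh38.p14) upstream of the start are shown for genes on which the results turn. CEP131 and CEP43 were among the CEP genes with the highest means, CEP170 standing between them, and KIF20B and KIF22 had the highest means among the KIF genes. KIF4A and KIF4B are close copies with different levels. Sequences run 5′ to 3′ on the coding strand, and capitals mark runs of 3 or more G or 3 or more C. The stretches lie at chr17:81223000-81223215 (minus strand, CEP131), chr6:166999147-166999396 (plus strand, CEP43), chr10:89701340-89701589 (plus strand, KIF20B), chr16:29790501-29790718 (plus strand, KIF22), chrX:70289854-70290089 (plus strand, KIF4A) and chr5:155013505-155013754 (plus strand, KIF4B).
CEP131: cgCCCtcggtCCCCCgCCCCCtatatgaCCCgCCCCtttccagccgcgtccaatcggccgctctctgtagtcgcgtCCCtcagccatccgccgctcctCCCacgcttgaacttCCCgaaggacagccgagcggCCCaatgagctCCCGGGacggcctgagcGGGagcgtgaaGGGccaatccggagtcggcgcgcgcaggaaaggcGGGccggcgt
CEP43: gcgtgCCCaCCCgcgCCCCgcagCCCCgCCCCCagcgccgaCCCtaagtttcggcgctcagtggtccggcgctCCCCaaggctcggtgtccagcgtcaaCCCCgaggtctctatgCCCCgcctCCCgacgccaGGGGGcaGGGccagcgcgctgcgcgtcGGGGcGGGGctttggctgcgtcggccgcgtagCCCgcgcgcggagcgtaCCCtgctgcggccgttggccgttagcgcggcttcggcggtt
KIF20B: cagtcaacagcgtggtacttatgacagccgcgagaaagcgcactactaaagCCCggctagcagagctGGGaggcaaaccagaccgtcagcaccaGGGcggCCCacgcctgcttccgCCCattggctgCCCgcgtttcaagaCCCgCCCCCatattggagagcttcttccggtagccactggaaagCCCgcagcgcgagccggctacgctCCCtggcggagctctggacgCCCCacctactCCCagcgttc
KIF22: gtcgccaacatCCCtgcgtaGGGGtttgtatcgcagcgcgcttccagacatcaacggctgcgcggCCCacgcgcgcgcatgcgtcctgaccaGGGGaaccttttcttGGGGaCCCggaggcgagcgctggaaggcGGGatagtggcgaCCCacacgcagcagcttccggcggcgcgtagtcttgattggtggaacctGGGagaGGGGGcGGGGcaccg
KIF4A: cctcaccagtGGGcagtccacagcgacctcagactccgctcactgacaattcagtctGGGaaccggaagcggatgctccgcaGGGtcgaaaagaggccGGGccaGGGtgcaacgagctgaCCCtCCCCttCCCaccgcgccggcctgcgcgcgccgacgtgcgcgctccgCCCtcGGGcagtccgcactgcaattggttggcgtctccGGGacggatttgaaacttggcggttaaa
KIF4B: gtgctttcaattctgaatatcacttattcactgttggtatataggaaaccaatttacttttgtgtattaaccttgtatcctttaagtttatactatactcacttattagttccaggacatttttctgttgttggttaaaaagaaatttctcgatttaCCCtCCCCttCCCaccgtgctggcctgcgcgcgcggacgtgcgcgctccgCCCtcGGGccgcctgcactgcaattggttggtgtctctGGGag

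A run of 3 or more C on the coding strand is a run of G on the template strand. CEP131 had 10 such C runs and CEP43 had 12, and each held 1 stretch of 5 G runs with gaps of 1 to 7 bases on the template strand. In CEP131 this stretch read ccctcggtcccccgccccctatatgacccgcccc on the coding strand, and in CEP43 it read cccacccgcgccccgcagccccgccccc. KIF20B had 10 C runs and 2 G runs, but no 4 of them stood within gaps of 1 to 7 bases.

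KIF22 and KIF4A had 7 G runs each, also with no complete motif in the stretch shown, while the whole 300-base promoter of each, which runs past the start, held 1 on the coding strand. The GC content was 70.8% in CEP131, 76.4% in CEP43, 64.4% in KIF20B, 67.4% in KIF22, 65.7% in KIF4A and 45.2% in KIF4B. The motif, 4 runs of GGG or longer with 1 to 7 bases of any kind between them on either strand, was found in 24.9% of all 34943 RefSeq promoters of 300 bases. A match describes the letters only. Of the 72 members only 51 had a RefSeq promoter within 200 bp of their window TSS, too few for a check of base composition or motifs over the families, which is void. Among those with a promoter, 5 of 26 CEP and 8 of 25 KIF genes held the motif, beside 29.8% of 10669 protein-coding genes. CEP131 and CEP43 are thus among the few CEP promoters with it, and CEP170, second by mean CPM, had none in its promoter.

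A CEP gene had a peak of all 3 lists in its window in 25 of 38 cases, or 65.8% (95% Wilson interval 49.9 to 78.8%), and a KIF gene in 16 of 34 cases, or 47.1% (31.5 to 63.3%). Of all 16892 protein-coding windows, 24.0% had a peak of all 3 lists. The intervals treat genes as independent and cover counting error only. The CEP and KIF intervals overlap. With a peak in at least 2 lists the counts were 27 of 38 CEP genes and 21 of 34 KIF genes, beside 34.2% of all protein-coding windows. Without the BioRep1 list the shares were 71.1% of CEP and 61.8% of KIF genes, a difference of 9.29 percentage points in place of 18.7. No list had a peak at 11 CEP (28.95%) and 10 KIF genes (29.4%), beside 58.6% of all protein-coding windows. The shares with a peak in at least 1 list were thus nearly equal, 71.1% of CEP and 70.6% of KIF genes, beside 41.4%.

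The median CEP window had 53.9 ± 2.68 CPM and the median KIF window 42.4 ± 1.10 CPM, beside 23.5 ± 0.645 CPM for all protein-coding windows (mean ± SD, n = 3 biological replicates). By replicate, the CEP median was 51.2, 56.5 and 54.1 CPM and the KIF median 43.6, 41.5 and 42.0 CPM in BioRep1, BioRep2 and BioRep3. The CEP medians all lay above the KIF medians. The ratio of the CEP median to the KIF median was 1.27 ± 0.0948 and ranged from 1.06 to 1.52 over the 9 libraries, above 1 in 9 of 9. The lowest ratio was in the second BioRep1 library, which also had the fewest reads.

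**Figure D1:**
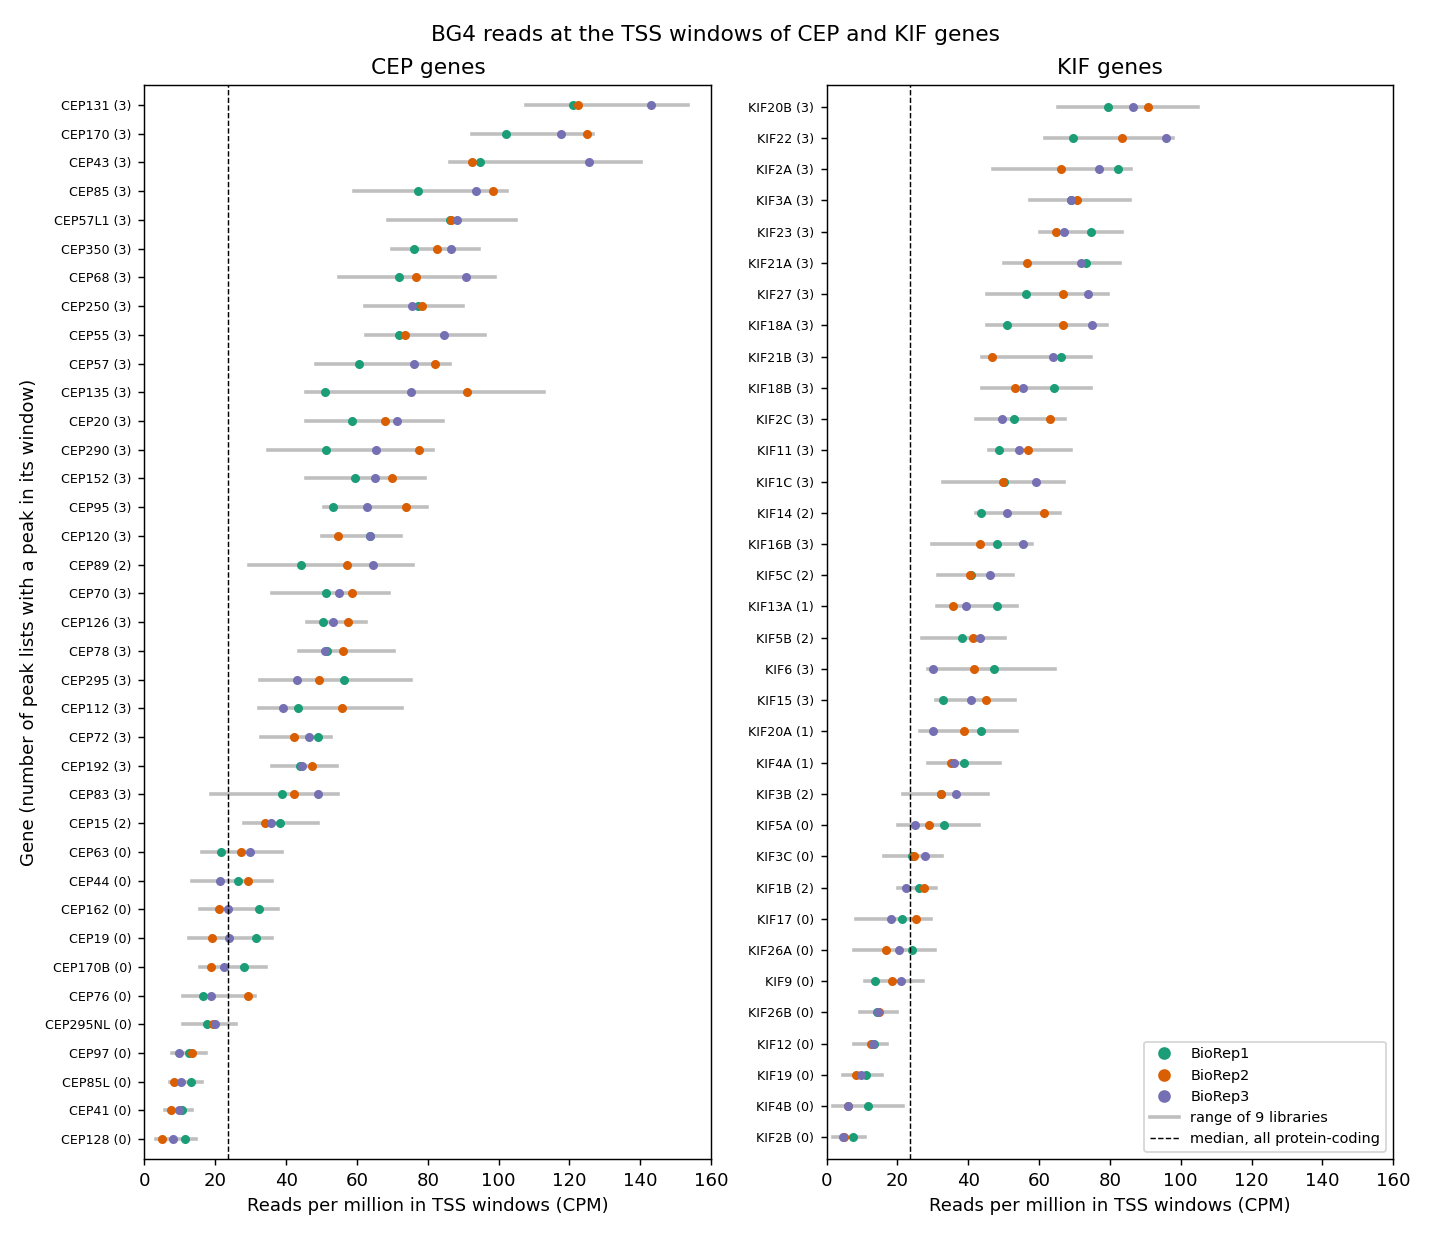
CPM at the TSS windows of the CEP genes (left) and KIF genes (right) reported by name, with the number of lists that had a peak there in brackets. Points are the 3 biological replicates (means of 3 technical libraries), grey bars span the 9 libraries, and the dashed line is the median of all protein-coding windows at 23.5 CPM. CEP131 stands highest at 129 CPM, KIF20B is the highest KIF gene at 85.6 CPM, and genes with no peak lie at 29.0 CPM or less.

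Genes with a peak had similar levels in both families. CEP genes with a peak in all 3 lists had 43.3 to 129 CPM with a median of 65.9, KIF genes with such a peak had 39.6 to 85.6 CPM with a median of 61.6, and all such protein-coding windows had a median of 64.7 CPM. CEP genes with no peak had 8.10 to 26.2 CPM with a median of 21.5, and KIF genes with no peak had 5.70 to 29.0 CPM with a median of 16.1. Among all protein-coding windows with no peak the median was 11.1 CPM. Peaks and CPM come from the same reads, so the gap between these classes is no separate finding.

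The cilium and distal appendage group of CEP genes serves the older centriole and the cilium that it carries. Of its 12 genes with a window, 8 had a peak in all 3 lists, with a group median of 55.5 ± 4.06 CPM. CEP131, a centriolar satellite protein needed for cilium formation, had the highest mean of all 72 members, 129 ± 12.3 CPM (SD, n = 3). Its window (chr17:81222800-81223199, minus strand, ENSG00000141577.13) had 127, 118 and 118 CPM in the BioRep1 libraries, 146, 108 and 114 CPM in the BioRep2 libraries, and 137, 154 and 138 CPM in the BioRep3 libraries. All 9 values exceeded the highest mean of any KIF gene, and BioRep2 overlapped both BioRep1 and BioRep3, which did not overlap each other. Peak-free windows within 5 Mb of CEP131 averaged 14.9 CPM, the highest such level around any member. CEP131 stood at 8.64 times this level.

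CEP43, a distal centriole protein also known as FOP, averaged 104 ± 18.5 CPM. Its window (chr6:166999206-166999605, plus strand, ENSG00000272980.4) had 92.4, 88.7 and 103 CPM in the BioRep1 libraries, 98.9, 92.2 and 86.2 CPM in the BioRep2 libraries, and 140.3, 122 and 115 CPM in the BioRep3 libraries. The BioRep3 libraries were all above those of BioRep1 and BioRep2, which overlapped. The edgeR quasi-likelihood test over the 3 biological replicates did not call CEP43 (adjusted p = 0.454).

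CEP20, a relative of CEP43, had 65.9 ± 6.57 CPM. CEP290, a protein of the ciliary transition zone that is mutated in several ciliopathies, had 64.8 ± 13.2 CPM. CEP126 had 53.7 ± 3.53 CPM and CEP78 had 52.8 ± 2.76 CPM. CEP83, a distal appendage protein that helps dock the centriole to the membrane, had the lowest level of the 8 at 43.3 ± 5.07 CPM. CEP20, CEP290, CEP126, CEP78 and CEP83 lay between 43.3 and 65.9 CPM, well below CEP131 and CEP43.

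CEP89, another distal appendage protein, had a peak in BioRep2 and BioRep3 only, with 44.2 CPM in BioRep1, 57.0 CPM in BioRep2 and 64.5 CPM in BioRep3. The remaining 3 genes of the group had no peak. CEP162, which marks the base of the axoneme, had 25.6 ± 5.96 CPM and CEP19, a cilium-forming protein of the distal end, had 24.8 ± 6.29 CPM. CEP41, which promotes glutamylation of ciliary tubulin, averaged 9.33 ± 1.67 CPM. Its window (chr7:130442234-130442633, minus strand, ENSG00000106477.18) had 7.83, 13.4 and 10.9 CPM in the BioRep1 libraries, 8.67, 5.91 and 7.83 CPM in the BioRep2 libraries, and 10.9, 10.1 and 8.42 CPM in the BioRep3 libraries. All 9 libraries lay under the protein-coding median of 23.5 CPM. The window of CEP41 lay at -692 bp from its RefSeq 5′ end (negative upstream). All 3 lists had peaks 1278 to 1528 bp downstream of the window TSS, near another RefSeq start of CEP41.

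Centriole assembly genes had a peak in all 3 lists in 7 of 11 cases, with a group median of 48.3 ± 3.39 CPM. CEP85 had 89.7 ± 11.2 CPM. CEP57 and CEP152, which form parts of the ring around the parent centriole, had 72.9 ± 11.1 CPM and 64.7 ± 5.23 CPM. CEP135, a protein linking the cartwheel to the centriole wall, had 72.5 ± 20.2 CPM, with 51.1 CPM in BioRep1, 91.1 CPM in BioRep2 and 75.2 CPM in BioRep3. The BioRep1 value was the lowest, and CEP135 had the widest SD of all members.

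CEP120, which promotes centriole elongation, had 60.7 ± 5.33 CPM. CEP295, needed for the conversion of centrioles to centrosomes, had 49.5 ± 6.58 CPM, and CEP192, a scaffold of the pericentriolar matrix that recruits the kinase PLK4, had 45.2 ± 1.87 CPM. No peak was listed at CEP63 (26.2 ± 4.07 CPM), the partner of CEP152 at the ring, at CEP44 (25.7 ± 3.97 CPM), at CEP76 (21.5 ± 6.90 CPM), which limits centriole reduplication, or at CEP97 (12.01 ± 1.93 CPM), which caps the growing centriole with CP110. The window of CEP97 lay at -689 bp from its RefSeq 5′ end (negative upstream), and at that 5′ end all 3 lists had a peak. The windows of the group thus lay on both sides of the protein-coding median.

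Of the 5 genes for centrosome cohesion and subdistal appendages, 4 had a peak in all 3 lists, with a group median of 80.3 ± 5.47 CPM. CEP170, a microtubule-binding protein of the subdistal appendages, averaged 115 ± 11.7 CPM. Its window (chr1:243255149-243255548, minus strand, ENSG00000143702.15) had 92.4, 110.2 and 103 CPM in the BioRep1 libraries, 127, 123 and 125 CPM in the BioRep2 libraries, and 115, 119 and 118 CPM in the BioRep3 libraries. The BioRep1 libraries were all below those of BioRep3, which were all below those of BioRep2. CEP170 lies beyond 200 Mb on chromosome 1, where peak-free windows not matched to a protein-coding gene had 11.8 ± 0.42 CPM (691 windows). Elsewhere on the autosomes such windows had 8.32 ± 0.451 CPM (36533 windows), and the part of this in the level of CEP170 was not tested. Its window stood at 12.01 times the level within 5 Mb, which was 9.56 CPM. KIF14, KIF21B and KIF26B lie in the same segment, with local levels of 11.6, 11.6 and 8.68 CPM.

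CEP350, which anchors microtubules at the centrosome, averaged 81.7 ± 5.23 CPM. Its window (chr1:179954539-179954938, plus strand, ENSG00000135837.15) had 75.1, 69.9 and 83.4 CPM in the BioRep1 libraries, 78.0, 80.4 and 89.3 CPM in the BioRep2 libraries, and 73.2, 91.9 and 94.3 CPM in the BioRep3 libraries. The ranges of the 3 biological replicates overlapped. The linker proteins CEP68 and CEP250 had 79.8 ± 9.91 CPM and 77.1 ± 1.39 CPM, CEP250 being also known as C-NAP1.

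CEP128, a subdistal appendage protein, had the lowest level of the CEP genes, 8.10 ± 3.24 CPM. Its window (chr14:80959318-80959717, minus strand, ENSG00000100629.16) had 6.26, 13.4 and 14.5 CPM in the BioRep1 libraries, 6.94, 4.73 and 3.13 CPM in the BioRep2 libraries, and 4.68, 5.74 and 13.5 CPM in the BioRep3 libraries. These values correspond to few reads each, and the ranges of the biological replicates overlapped.

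CEP55, which brings the abscission machinery to the midbody at the end of cell division, had a peak in all 3 lists and 76.6 ± 6.88 CPM. Among the 9 CEP genes placed in no group, 5 had such a peak: CEP57L1, a relative of CEP57, with 87.0 ± 1.03 CPM, CEP95 with 63.2 ± 10.3 CPM, CEP70 with 54.9 ± 3.60 CPM, CEP112 with 46.1 ± 8.60 CPM and CEP72 with 45.9 ± 3.32 CPM. CEP15 had a peak in BioRep2 and BioRep3 and 36.05 ± 2.08 CPM. CEP170B, CEP295NL and CEP85L had none, with 23.1 ± 4.74 CPM, 18.9 ± 1.22 CPM and 10.7 ± 2.39 CPM. These ungrouped genes spanned most of the family's range.

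Of the 12 mitotic kinesins, 8 had a peak in all 3 lists, or 66.7% (95% Wilson interval 39.1 to 86.2%), and of the 9 axonal transport kinesins with a window 3 did, or 33.3% (12.1 to 64.6%). The intervals overlap, and at the deposited windows this difference of 33.3 percentage points rested on the BioRep1 list. With a peak in at least 2 lists the counts were 9 of 12 mitotic and 7 of 9 axonal transport kinesins, 75.0% and 77.8%. Without BioRep1 the shares were the same 75.0% and 77.8%, so that the difference turned to -2.78 percentage points.

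By list, BioRep1 had a peak at 9 of 12 mitotic and 3 of 9 axonal transport kinesins, BioRep2 at 10 and 7, and BioRep3 at 9 and 7. Over all protein-coding windows the lists had a peak at 25.4%, 35.6% and 38.6%, BioRep1 being the shortest list. The median CPM showed the same order with a smaller gap, 53.9 ± 4.75 CPM for mitotic and 40.6 ± 2.54 CPM for axonal transport kinesins (SD, n = 3). The replicate medians did not overlap, at 49.8, 59.1 and 52.6 CPM for mitotic kinesins and 38.2, 40.5 and 43.2 CPM for axonal transport kinesins in BioRep1, BioRep2 and BioRep3. The ratio of the medians was 1.33 ± 0.123 and ran from 0.963 to 1.93 over the libraries, above 1 in 8 of 9, with the third BioRep3 library below 1.

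**Figure D2:**
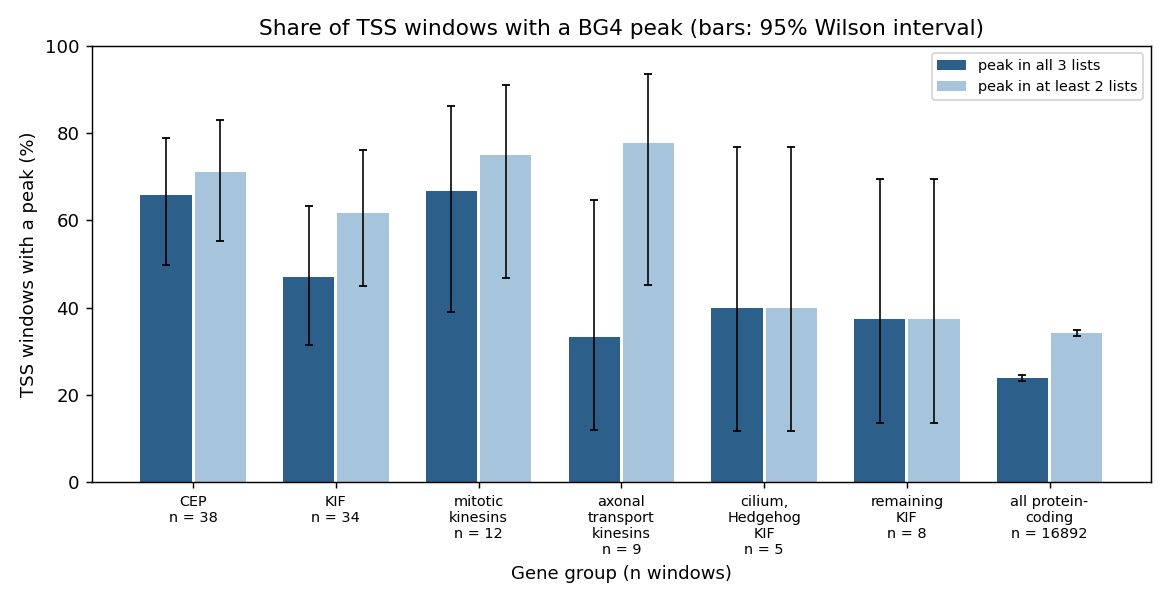
Share of TSS windows with a peak in all 3 lists (dark bars) and in at least 2 lists (light bars) for each gene group, with 95% Wilson intervals. Mitotic kinesins stand at 66.7% and axonal transport kinesins at 33.3% in all 3 lists, while in at least 2 lists they stand at 75.0% and 77.8%.

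**Figure D3:**
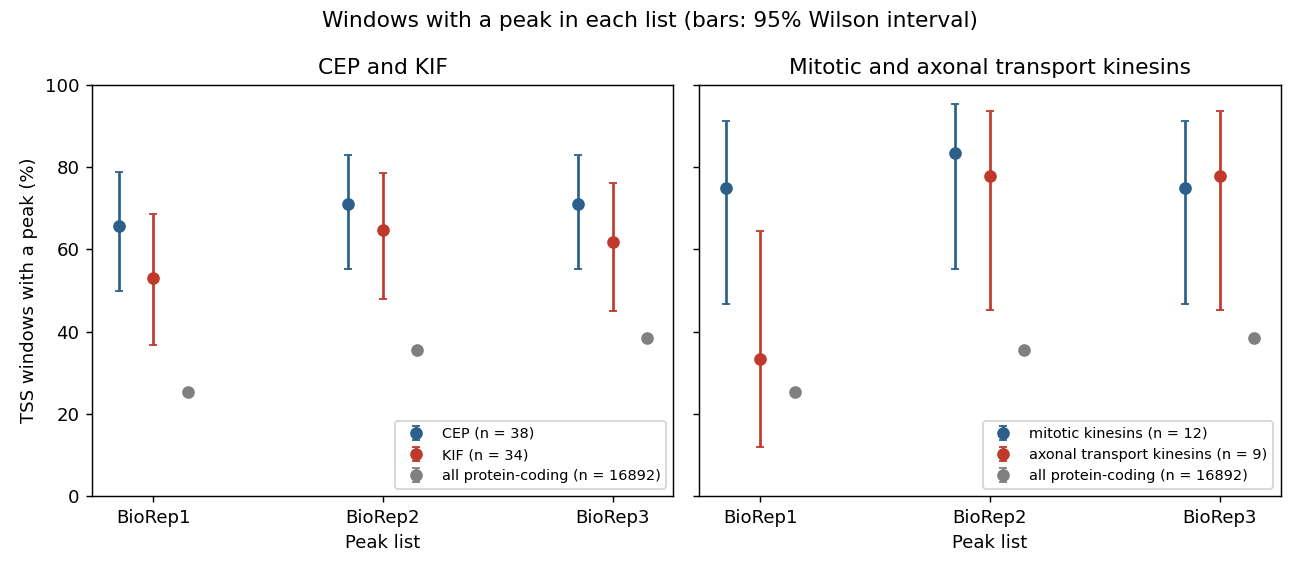
Share of windows with a peak in each of the 3 lists, for CEP and KIF genes (left) and for mitotic and axonal transport kinesins (right), with the share of all protein-coding windows in grey and 95% Wilson intervals as bars. Axonal transport kinesins stand at 33.3% in BioRep1 and at 77.8% in both other lists, while mitotic kinesins stand between 75.0% and 83.3%.

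KIF20B, a kinesin of late mitosis and cytokinesis, had the highest mean of the KIF genes, 85.6 ± 5.68 CPM. Its window (chr10:89701411-89701810, plus strand, ENSG00000138182.14) had 79.8, 75.3 and 83.4 CPM in the BioRep1 libraries, 91.9, 91.0 and 89.3 CPM in the BioRep2 libraries, and 65.5, 105 and 89.3 CPM in the BioRep3 libraries. BioRep3 held both the lowest and the highest value and overlapped both other replicates, while all BioRep2 values lay above those of BioRep1.

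KIF22, a chromokinesin that pushes chromosome arms away from the spindle poles, averaged 83.0 ± 13.1 CPM. Its window (chr16:29790520-29790919, plus strand, ENSG00000079616.12) had 64.2, 83.3 and 61.6 CPM in the BioRep1 libraries, 95.4, 81.5 and 73.6 CPM in the BioRep2 libraries, and 93.5, 96.2 and 97.7 CPM in the BioRep3 libraries. BioRep1 was on the low side and BioRep3 on the high side, with BioRep2 overlapping both.

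KIF23, the motor of the centralspindlin complex in cytokinesis, averaged 68.8 ± 5.18 CPM. Its window (chr15:69414047-69414446, plus strand, ENSG00000137807.14) had 73.6, 83.3 and 67.0 CPM in the BioRep1 libraries, 65.9, 67.4 and 61.1 CPM in the BioRep2 libraries, and 74.8, 60.3 and 65.7 CPM in the BioRep3 libraries. The 9 values ran from 60.3 to 83.3 CPM, and the replicates overlapped.

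KIF18A, which dampens the movements of chromosomes on the spindle, had 64.2 ± 12.1 CPM, and KIF18B, a regulator of astral microtubules, had 57.7 ± 5.78 CPM. KIF2C, a microtubule depolymerase at the kinetochore also known as MCAK, had 55.1 ± 6.99 CPM. KIF11, the motor Eg5 that pushes the spindle poles apart, had 53.2 ± 4.21 CPM. All 4 had a peak in all 3 lists. KIF15, which acts beside KIF11 in keeping the spindle bipolar, had 39.6 ± 6.08 CPM and was the lowest of the 8, and its BioRep1 peak was 1 bp long.

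KIF14, needed for cytokinesis, had a peak in BioRep2 and BioRep3 and 43.5 CPM in BioRep1, 61.3 CPM in BioRep2 and 51.0 CPM in BioRep3. KIF20A, a kinesin of the central spindle, had a peak in BioRep2 alone and 43.7 CPM in BioRep1, 38.8 CPM in BioRep2 and 30.0 CPM in BioRep3. The window of KIF20A lay at -393 bp from its RefSeq 5′ end (negative upstream), and at that 5′ end BioRep2 and BioRep3 had a peak. KIF4A, a chromokinesin of the central spindle, had a peak in BioRep1 alone and 38.9 CPM in BioRep1, 35.2 CPM in BioRep2 and 36.1 CPM in BioRep3. A peak of BioRep1 alone was found at KIF4A and KIF13A among the members, beside 0.337% of all protein-coding windows. In CPM the replicates of KIF4A lay close together, while the peak lists differed.

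KIF4B, a near copy of KIF4A on another chromosome, had no peak and 7.99 ± 3.19 CPM. Its window (chr5:155013556-155013955, plus strand, ENSG00000226650.5) had 6.26, 21.5 and 7.25 CPM in the BioRep1 libraries, 6.94, 8.27 and 3.13 CPM in the BioRep2 libraries, and 14.03, 2.87 and 1.69 CPM in the BioRep3 libraries. The second BioRep1 library, in which 1 read is worth most, held the highest value. The promoter stretches shown above match over 95 bases with no gap, bases 118 to 212 of KIF4A and 155 to 249 of KIF4B, of which 86 (90.5%) are identical. The CPM of both genes is uncertain to the extent that reads from one could be placed on the other, and this was not tested.

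KIF3A, which with KIF3B forms the motor of heterotrimeric kinesin-2 in axons and cilia, had the highest mean of the axonal transport kinesins, 69.6 ± 1.03 CPM. Its window (chr5:132737439-132737838, minus strand, ENSG00000131437.15) had 62.6, 80.6 and 63.4 CPM in the BioRep1 libraries, 72.8, 62.6 and 76.8 CPM in the BioRep2 libraries, and 85.7, 57.4 and 64.0 CPM in the BioRep3 libraries. The replicate means lay close together, with a wider spread among technical libraries.

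KIF21A, a kinesin of axons and of the cell cortex, averaged 67.2 ± 9.35 CPM. Its window (chr12:39443191-39443590, minus strand, ENSG00000139116.18) had 83.0, 64.5 and 72.5 CPM in the BioRep1 libraries, 59.0, 60.3 and 50.1 CPM in the BioRep2 libraries, and 65.5, 76.1 and 74.1 CPM in the BioRep3 libraries. BioRep2 was lowest, below all of BioRep1 and all of BioRep3. KIF1C, a vesicle motor, was the third with a peak in all 3 lists, with 53.0 ± 5.42 CPM, and its BioRep1 peak covered 13 bp of the window.

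The kinesin-1 heavy chains, the main motors of fast axonal transport, were split. KIF5B, present in most tissues, had a peak in BioRep2 and BioRep3 and 38.1 CPM in BioRep1, 41.4 CPM in BioRep2 and 43.2 CPM in BioRep3. KIF5C, enriched in neurons, had the same lists and 40.8 CPM in BioRep1, 40.5 CPM in BioRep2 and 46.1 CPM in BioRep3. KIF5A, also neuronal, had no peak and 29.0 ± 4.08 CPM.

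KIF3B had a peak in BioRep2 and BioRep3 and 32.3 CPM in BioRep1, 32.4 CPM in BioRep2 and 36.5 CPM in BioRep3, though its BioRep3 peak reached into the window by 2 bp. KIF1B, a motor for synaptic vesicle precursors and mitochondria, had a peak in the same lists and 26.2 CPM in BioRep1, 27.5 CPM in BioRep2 and 22.3 CPM in BioRep3. Its BioRep2 and BioRep3 peaks covered 60 and 48 bp of the window. The window of KIF1B lay 235 bp downstream of its RefSeq 5′ end, and at that 5′ end all 3 lists had a peak. KIF3C, the neuronal kinesin-2 subunit, had no peak and 25.5 ± 1.98 CPM. For KIF5B, KIF5C, KIF3B and KIF1B the BioRep1 CPM lay close to that of at least 1 other replicate. Their adjusted p in the edgeR quasi-likelihood test over the 3 biological replicates was 0.99, 0.97, 0.986 and 0.905, in that order. That test called no window at all, so these values cannot show that the replicates were alike. The set of axonal transport kinesins with a peak in BioRep2 and BioRep3 was 7 of 9, beside 33.1% of all protein-coding windows.

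**Figure D4:**
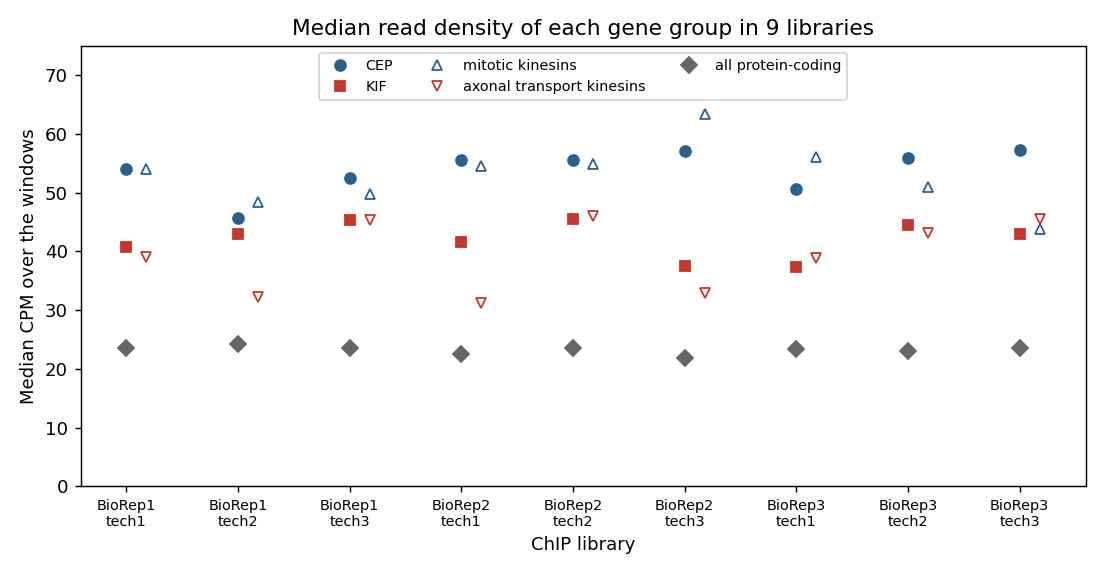
Median CPM over the windows of each gene group in the 9 ChIP libraries, filled symbols for CEP, KIF and all protein-coding genes and open triangles for mitotic and axonal transport kinesins. The CEP median lies above the KIF median in 9 of 9 libraries and the mitotic above the axonal transport median in 8 of 9, and all of them lie above the protein-coding median of 21.9 to 24.2 CPM.

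Of the 5 cilium and Hedgehog kinesins with a window, 2 had a peak in all 3 lists, and the group median was 22.6 ± 2.33 CPM. KIF27, a relative of the Drosophila Hedgehog regulator Costal2, had 65.6 ± 8.89 CPM and KIF6 had 39.7 ± 8.80 CPM. KIF17, a ciliary and dendritic motor, KIF9, a kinesin of motile cilia, and KIF19, which shortens ciliary microtubules, had no peak and 21.6 ± 3.50 CPM, 17.8 ± 3.77 CPM and 9.74 ± 1.43 CPM. The window of KIF9 lay at -652 bp from its RefSeq 5′ end (negative upstream), and at that 5′ end BioRep2 and BioRep3 had a peak.

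Of the 8 remaining KIF genes, 3 had a peak in all 3 lists. KIF2A, a microtubule depolymerase, had 75.2 ± 8.10 CPM, KIF21B had 58.9 ± 10.6 CPM, and KIF16B, a motor of early endosomes, had 48.9 ± 6.10 CPM. KIF13A, a motor of recycling endosomes, had 48.1 CPM in BioRep1, 35.8 CPM in BioRep2 and 39.3 CPM in BioRep3, with its peak in BioRep1. KIF26A, KIF26B and KIF12 had no peak and 20.5 ± 3.62 CPM, 14.5 ± 0.239 CPM and 13.1 ± 0.381 CPM.

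KIF2B, a relative of KIF2A and KIF2C, had the lowest mean of all 72 members, 5.70 ± 1.57 CPM. Its window (chr17:53822702-53823101, plus strand, ENSG00000141200.7) had 6.26, 5.38 and 10.9 CPM in the BioRep1 libraries, 5.20, 3.55 and 6.27 CPM in the BioRep2 libraries, and 7.79, 4.31 and 1.69 CPM in the BioRep3 libraries. The replicates overlapped, and all 9 values lay under the protein-coding median. The members of the KIF2 depolymerase subfamily thus ran from the bottom of the family (KIF2B) to its upper part (KIF2A). Of this subfamily the mitotic list held KIF2C only, so KIF2A and KIF2B do not count in the mitotic shares and medians.

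The biological replicates were compared by edgeR with its quasi-likelihood test, run over all windows that passed a filter on low counts, 34 of the 38 CEP and 31 of the 34 KIF genes among them. CEP97, CEP85L, CEP41, CEP128, KIF19, KIF4B and KIF2B did not pass it. No member was called at an adjusted p of 0.05, and of all 17499 windows tested 0 were called (0%), with 0 also in a DESeq2 likelihood ratio test. At an unadjusted p under 0.05 there were 5 CEP and 4 KIF genes, beside 1377 windows or 7.87% of all. The lowest adjusted p among members was 0.178 at CEP135, with a log2 difference of 0.76 for BioRep2 minus BioRep1, and the lowest among KIF genes was 0.544. The p-values measure the spread between technical libraries only. In simulated counts BioRep2 was raised in a sample of the windows that passed the filter, with a dispersion set above that of the data. The test found 22% of 1.5-fold and 84% of 2-fold differences, so 1.5-fold differences were mostly not found there. These shares are for the sampled windows together and not for the members.

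**Figure D5:**
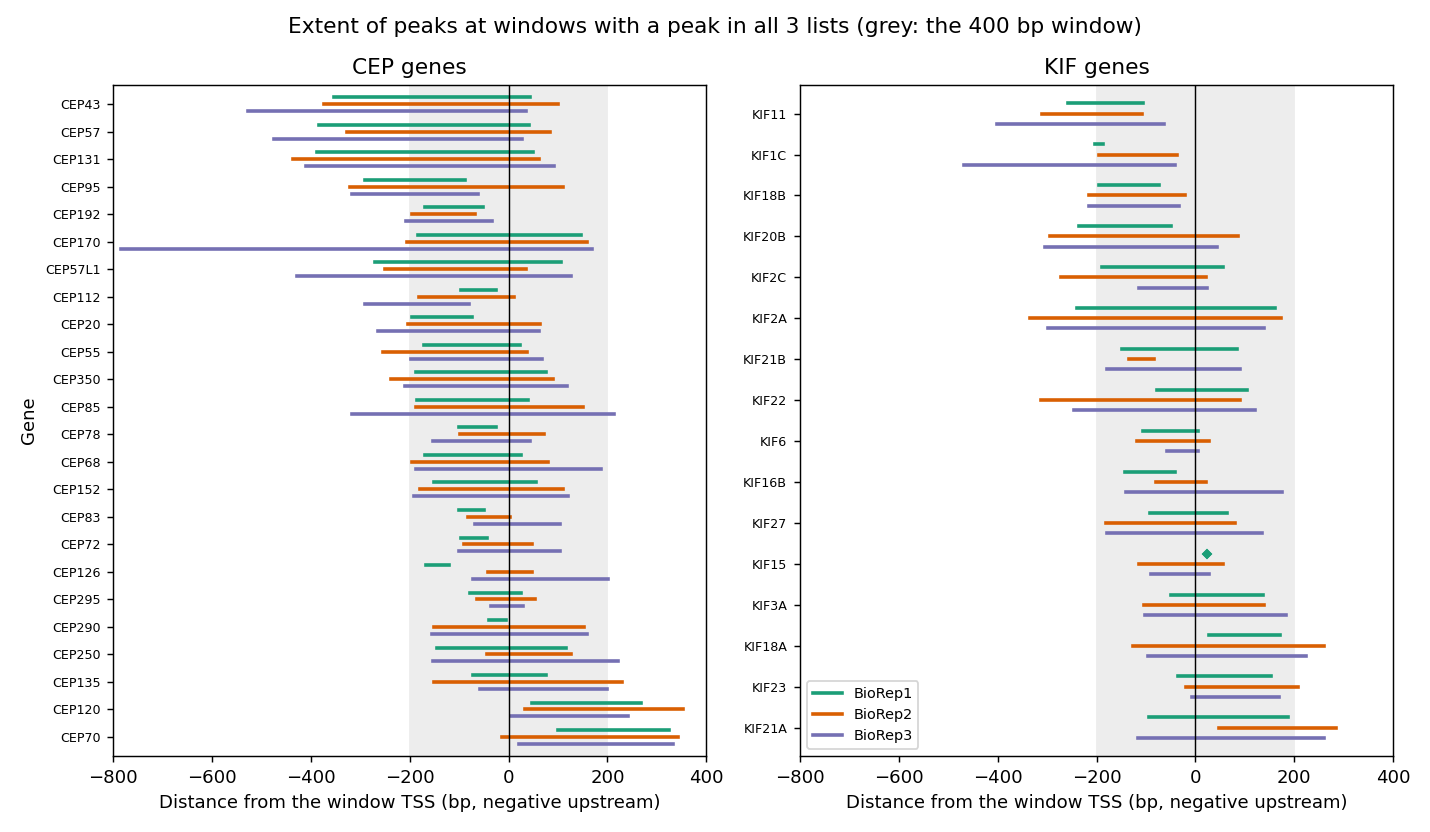
Extent of the peaks at the CEP and KIF windows reported by name with a peak in all 3 lists, as distance from the window TSS in bp, with negative values upstream and the 400 bp window in grey. Lines are the lists of BioRep1, BioRep2 and BioRep3, and a diamond marks a peak too short to draw. Most peaks lie across or upstream of the TSS, and those of CEP120, CEP70, KIF18A, KIF23 and KIF21A lie mainly downstream.

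Peaks at the members sat close to the TSS, mostly on its upstream side. The mean midpoint over the 3 lists had a median of -47.5 bp at the 25 CEP genes (range -179 to 184) and of -46.8 bp at the 16 KIF genes (range -208 to 95.2), with negative values upstream. It lay upstream in 21 of 25 CEP and 12 of 16 KIF genes, beside 69.7% of the 4046 protein-coding windows with such peaks, whose median was -42.8 bp. Of the 8 mitotic kinesins 6 had the midpoint upstream, and of the 3 axonal transport kinesins 1 did, which was KIF1C. The bases of the window that were covered had medians of 148, 248 and 236 in CEP genes and 147, 176 and 257 in KIF genes, for BioRep1, BioRep2 and BioRep3, beside 159, 231 and 256 in all such protein-coding windows.

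Some members have a start on the opposite strand nearby, and where the windows of both overlap, shared reads cannot be assigned to either start. A divergent start within 1000 bp upstream, or overlapping by at most 200 bp, was listed for 12 of 38 CEP genes (31.6%) and 7 of 34 KIF genes (20.6%), beside 16.6% of all protein-coding windows. Of the CEP genes with a divergent start, 10 of 12 had a peak in all 3 lists, against 15 of the 26 others, and of the KIF genes 5 of 7 did, against 11 of 27. The windows of CEP170, CEP250 and KIF26A did not overlap those of their partners. Over all protein-coding windows the shares were 45.9% with a divergent start and 19.6% without one. Named partners included SDCCAG8 at CEP170, SESN1 at CEP57L1, TMTC3 at CEP290, FAAP24 at CEP89, METTL15 at KIF18A and KIAA1143 at KIF15. The part of nearby starts in the difference between CEP and KIF genes was not tested beyond leaving out members whose window overlaps another, which gave a ratio of medians of 1.41 in place of 1.27.

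The local level was similar around both families. It was taken as the mean of the peak-free windows within 5 Mb that were not matched to a protein-coding gene. It ran from 4.90 to 14.9 CPM with a median of 8.19 around CEP genes and from 6.91 to 13.4 CPM with a median of 9.14 around KIF genes. Over this level the CEP windows stood at 0.989 to 12.04 times with a median of 7.11, and the KIF windows at 0.543 to 12 times with a median of 4.45. The families kept their order on this scale, and KIF2B was the member with the lowest ratio.

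Other genes of the same structures were counted in the same way. Of 26 further centrosome genes with a window, such as the centriole assembly kinase PLK4 and the matrix protein PCNT, 15 had a peak in all 3 lists (57.7%), with a median of 47.8 ± 1.02 CPM. Of 24 further motor genes with a window, among them minus-end kinesins, kinesin light chains and dynein and dynactin subunits, 10 had one (41.7%), with a median of 45.6 ± 3.75 CPM. The centrosome share stood between those of the CEP and KIF genes, and the motor share stood below both.

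Taking peaks within 200 bp of the RefSeq 5′ end in place of the deposited window, a choice made after seeing the data, 23 of 39 CEP genes (59.0%) and 17 of 38 KIF genes (44.7%) had a peak in all 3 lists, beside 24.2% of 19140 protein-coding genes. The counts were 8 of 12 for mitotic and 4 of 10 for axonal transport kinesins. CEP97 and KIF1B had such peaks at the RefSeq 5′ end, though their windows had no peak (CEP97) or one in 2 lists (KIF1B). CEP120 and CEP83 had theirs only at the deposited window, and CEP95 had a peak of BioRep2 and BioRep3 but not of BioRep1 at the 5′ end. So did KIF20A, whose window had a peak of BioRep2 alone. With a peak in at least 2 lists at the 5′ ends, the mitotic share stood above the axonal transport share. The same order held without BioRep1. At the 5′ ends KIF20A counted with 2 lists, and KIF1A entered the axonal transport kinesins with none. CEP164, KIF1A, KIF24, KIF25 and KIF7, which have no window, had none in any of the 3 lists.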

How the data were processed

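BG4 ChIP libraries of HEK293 cells were grouped by biological replicate from the sample titles. The deposited values are raw read counts per 400 bp TSS window (GENCODE release 28, hg38), unscaled for depth or input, and 1 deposited peak list per biological replicate, with other columns holding only start and end positions. Tools listed in the submitters' processing notes are BWA, MACS2, Picard, bedtools and cutadapt, with the build hg38. Their versions, the peak threshold, the joining of technical libraries and the treatment of duplicates were not given in the sources used here.

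Members took windows by position from the RefSeq table, since windows carry Ensembl IDs and no symbols. The strand came from RefSeq promoters for 61 members and from the only window found for 11. With 5′ ends shifted by 10000 bp, 974 genes matched, 5.77% of the real number. CPM was computed over all windows, without a pseudocount. A window had a peak at 1 bp of overlap. Biological replicates were compared window by window with edgeR 4.0.16 in R 4.3.3 (TMM, filterByExpr, robust quasi-likelihood fit, Benjamini-Hochberg at 0.05 over 17499 windows), with DESeq2 1.42.0 as an alternative. The common dispersion was 0.0011. On simulated data the fit gave 7 false calls among 18262 windows. Depth was 372030 to 846114 reads in windows per library, which is not the full depth. Intervals cover counting error only. Nothing in the labels says that the biological replicates came from separate cultures.

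The technical numbers were not used as pairs. Members and lists were chosen with earlier results of these data known. Named with mean ± SD was each reported gene with a peak in all 3 lists. Values of 9 libraries were given for the 4 CEP and 4 KIF genes with the highest lowest value, the 2 with the lowest mean in each family, and the 2 highest mitotic and 2 highest axonal transport kinesins. Other members were named as well, outside this rule. A result that this rule would name is not reported here and still counts in its groups. Alternatives were other scalings, filters, distances, overlaps, peak widths and gene lists, and leaving out replicates. The RefSeq 5′ end and chromosome 1 settings were chosen after seeing the data.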

Additional observations from a re-analysis of the deposited data

How the results depend on the processing

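CEP genes stood above KIF genes in share of windows with a peak in all 3 lists and in median CPM under each alternative tried. With a peak in at least 1 list, which was not among these alternatives, the shares were nearly equal at 71.1% and 70.6%. The order of mitotic and axonal transport kinesins held for median CPM, and for peaks under all alternatives except a peak in at least 2 lists and leaving out BioRep1. With a peak in at least 2 lists, and equally without BioRep1, the axonal transport share was 77.8% and the mitotic minus axonal difference -2.78 percentage points, both at the deposited windows. At the RefSeq 5′ ends the mitotic share stayed above the axonal transport share in both of these settings. Counting peaks above their list's median width only, the CEP share was 39.5%, the KIF share 26.5% and the mitotic minus axonal difference 19.4 points. With shared promoters left out the KIF median was 37.7 CPM, the axonal transport median 34.0 CPM, the CEP to KIF ratio 1.41 and the mitotic to axonal ratio 1.62. With windows within 200 bp the CEP and KIF medians were 57.1 and 45.6 CPM, and with filtered windows 57.5 and 45.6 CPM. Without mitochondrial windows the KIF median was 43.7 CPM, and 5 of 72 members moved by more than their SD. The narrow axonal list gave 37.3 CPM. The cause of these shifts was not tested.

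Leaving out each biological replicate gave shares of 65.8 to 71.1% for CEP, 47.1 to 61.8% for KIF, 66.7 to 75.0% for mitotic and 33.3 to 77.8% for axonal transport kinesins. It gave differences of 9.29 to 18.7 points between CEP and KIF and of -2.78 to 33.3 points between mitotic and axonal. Medians were 52.6 to 55.3, 41.8 to 42.8, 51.2 to 55.9 and 39.3 to 41.8 CPM for CEP, KIF, mitotic and axonal, with ratios of 1.23 to 1.32 and 1.26 to 1.39.

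Windows that differed between biological replicates numbered 0 with edgeR (1377 at an unadjusted p under 0.05), 0 with DESeq2 (807 unadjusted), 25 with no filter, which tests more windows, and 0 to 1 leaving out each technical library, 1 without the first BioRep1 or the second BioRep3 library. With the technical number as a replicate block 0 windows were called. Libraries with the same number correlated at -0.0157 to 0.0269 after removal of the group means, and others at -0.0214 to 0.0238. Low windows such as KIF2B and CEP128 rest on few reads per library.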

Other observations

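Several members with no peak at their window had one farther along the gene. CEP41 had peaks in all 3 lists 1278 to 1528 bp downstream of its window TSS, 106 to 138 bp from another RefSeq start of CEP41. CEP85L had peaks in all 3 lists 58259 to 59102 bp downstream, 6 to 617 bp from another of its RefSeq starts. CEP128 had a peak 17698 bp downstream in BioRep2 and 17712 bp downstream in BioRep3, 81 bp and 67 bp from another of its RefSeq starts. The low CPM at these windows therefore covers 1 start each and not every start of the gene.

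Further peaks lay inside members away from their window. KIF17 had a peak in all 3 lists 56467 to 56505 bp downstream, 6 to 32 bp from the start of DDOST. CEP170B had a peak in all 3 lists 11172 to 11226 bp downstream, and KIF26A had a peak 11248 bp downstream in BioRep3. KIF26B had a peak 1649 bp downstream in BioRep2 and 1612 bp downstream in BioRep3. CEP128 had another peak in BioRep2, 70 bp from the start of TSHR.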
